A study of Homo sapiens with 6 samples.

Results

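NFE2L2, the gene of the transcription factor NRF2, was followed together with its inhibitor KEAP1 and 8 well-known antioxidant targets of NRF2 in PANC1 cells treated with gemcitabine. The 10 genes were chosen by name, as NFE2L2, KEAP1, NQO1, HMOX1, GCLC, GCLM, TXNRD1, SRXN1, SLC7A11 and OSGIN1. The rule uses no measured value, although earlier results of these data were known when the genes were listed. Of these, 9 were found among the 20461 genes of the expression table and all 9 were among the 14854 genes tested. SRXN1, the gene of the enzyme that repairs overoxidized peroxiredoxins, was not analysed here at the RNA level.

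PANC1 is an established human pancreatic carcinoma line, and gemcitabine is a nucleoside analog used against pancreatic cancer. Cells were grown for 24 h and then given 50 nM gemcitabine or vehicle (0.1% DMSO) for 48 h, and RNA-seq was done on 2 biological replicates per condition. DNaseI-seq, which maps accessible chromatin, was done on 1 vehicle and 1 gemcitabine library. The comparison of drug with vehicle asked which genes and which open regions change when the cells meet the drug.

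NRF2 is held at low levels in unstressed cells because KEAP1 binds it and hands it to a ubiquitin ligase. Oxidants and electrophiles modify KEAP1, and NRF2 then enters the nucleus, pairs with a small MAF protein and binds the antioxidant response element. Its targets supply glutathione, thioredoxin reductase and quinone reductases. Control of NRF2 lies mostly at the level of the protein, so the mRNA of NFE2L2 does not measure NRF2 activity.

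The libraries held 15153593 and 15766237 fragments (vehicle) and 13194533 and 13275457 fragments (gemcitabine), and a count of 3 fragments equalled 0.19 to 0.227 CPM, the unit that scales a count to the size of its library. Markers of this carcinoma line, keratins and other epithelial genes with the mesenchymal gene VIM, summed to between 2970 and 3100 CPM in vehicle and between 3150 and 3170 CPM in gemcitabine libraries, led by KRT7, KRT8, KRT18 and VIM. CDH1 and EPCAM, which define most epithelia, were low in all libraries (4 to 13 and 45 to 80 fragments). All 4 leukocyte and all 4 acinar markers had at most 10 fragments in every library. Of the 2 endothelial markers found, CDH5 had 0 to 3 fragments. The pair summed to between 0.55 and 0.788 CPM in vehicle and between 2.35 and 2.45 CPM in gemcitabine libraries. Most of this was VWF, with 8 and 9 fragments in vehicle and 34 and 30 in gemcitabine libraries. VWF was higher with gemcitabine (log2 fold change 2.01 ± 0.39, edgeR adjusted p = 0.000902). The 3 fibroblast markers summed to between 6.81 and 7.22 CPM in vehicle and between 9.84 and 10.1 CPM in gemcitabine libraries. PDGFRA had 0 or 1 fragment. LUM rose from 67 and 71 to 116 and 102 fragments (log2 fold change 0.77 ± 0.18, edgeR adjusted p = 0.00375). DCN did not pass (log2 fold change -0.225 ± 0.306, edgeR adjusted p = 0.597). The part of these markers in the results below was not tested.

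The sequences that tie these genes to NRF2 are short. The core of the antioxidant response element was searched as TGACNNNGC, and on the other strand as GCNNNGTCA, in the DNaseI peaks near the members. The stretches below carry each match in capitals, on the strand of the gene and on hg19. They are shown because they are the letters that lay in open chromatin at a member. NQO1 (minus strand, chr16:69760815-69761013) held its match 455 bases upstream of its main start, in a peak called in both conditions. OSGIN1 (plus strand, chr16:83986263-83986321) held one 557 bases upstream of its main start, in an intron of longer annotated transcripts, in a peak called only with gemcitabine. GCLM (minus strand, chr1:94375002-94375030) held one 34 bases upstream, in a peak called only with vehicle. TXNRD1 (plus strand, chr12:104680698-104680726) held one at an alternative start inside the gene, and a further one in an intron near its main start (chr12:104613267-104613325), both in peaks called in both conditions.
NQO1: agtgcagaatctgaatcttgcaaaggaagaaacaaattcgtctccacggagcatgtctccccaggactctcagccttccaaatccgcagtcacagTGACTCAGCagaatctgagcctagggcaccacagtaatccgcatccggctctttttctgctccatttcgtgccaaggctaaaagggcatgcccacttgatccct
OSGIN1: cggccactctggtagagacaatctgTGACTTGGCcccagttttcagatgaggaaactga
GCLM: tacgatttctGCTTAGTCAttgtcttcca
TXNRD1, alternative start: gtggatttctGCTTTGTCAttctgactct
TXNRD1, near the main start: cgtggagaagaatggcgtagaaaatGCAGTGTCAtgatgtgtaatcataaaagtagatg

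The NQO1 match also holds TGACTCA, the site of AP-1 factors, and none of the other matches do. Such letters are common: 32.0% of the vehicle peaks and 36.6% of the gemcitabine peaks held at least 1 match. Among peaks within 20% of the same length the shares were 38.3% and 38.4% for the NQO1 peaks, 36.9% for that of OSGIN1, 29.2% for that of GCLM and 43.5% to 50.3% for those of TXNRD1. A match is thus a description of the sequence and not evidence that NRF2 was bound.

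Of the 9 members tested, 6 passed an adjusted p of 0.05 in the quasi-likelihood test of edgeR (Benjamini-Hochberg adjusted), OSGIN1 and NQO1 upward and TXNRD1, SLC7A11, GCLM and GCLC downward. Among all genes tested 38.5% passed, 18.5% upward and 20.0% downward. Only OSGIN1 also met the further thresholds the study set for a differentially expressed gene. These were fold change over 1.5, mean FPKM of at least 0.1 in 1 condition and a difference of at least 1 FPKM. Of all genes, 10.1% met them, 5.69% higher and 4.42% lower. Fold change and adjusted p came from edgeR here and from Cuffdiff in the study, so these calls are not the study's own. FPKM counts fragments relative to transcript length and library size. The median log2 fold change was -0.06 over the members and 0.01 over all genes. The members thus did not move as a block: the quinone reductase and OSGIN1 were higher with gemcitabine, the genes of the cystine exchanger, glutamate-cysteine ligase and thioredoxin reductase were lower, and 3 did not pass. The split of 2 higher and 4 lower became 3 and 3 when libraries were scaled by their totals, a scaling that moved the median of all genes to 0.12. In RNA from whole cultures, fewer cells of a type and less RNA per cell cannot be told apart.

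**Figure D1:**
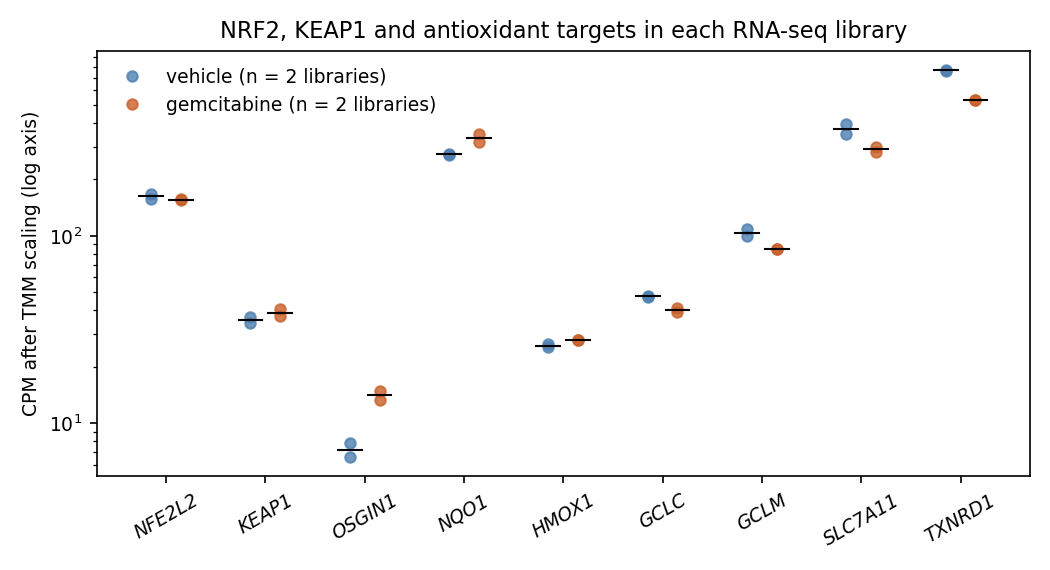
CPM after TMM scaling (log axis) of the 9 members in each RNA-seq library, 2 vehicle (blue) and 2 gemcitabine (orange), with a black line at each mean. OSGIN1 lies at 6.6 and 7.81 in vehicle and at 14.9 and 13.2 in gemcitabine libraries, and TXNRD1 at 762 and 768 against 530 and 530.

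The regulator itself showed no change that passed the test. NFE2L2 (ENSG00000116044.11, chr2:178083395-178257484, minus strand) had 2431 and 2406 fragments in the vehicle and 2148 and 2136 in the gemcitabine libraries, or 167 and 158 against 155 and 157 CPM. The groups lay side by side, with the higher gemcitabine library just below the lower vehicle library. The log2 fold change was -0.06 ± 0.07 (SE, n = 2 per condition, edgeR adjusted p = 0.496), and it changed sign to 0.05 when libraries were scaled by their totals and to 0.09 on the log2(FPKM + 1) scale.

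KEAP1 (ENSG00000079999.9, chr19:10596801-10614234, minus strand), the adaptor that marks NRF2 for degradation, had 535 and 521 fragments with vehicle and 517 and 551 with gemcitabine. On the CPM scale these were 36.8 and 34.2 against 37.2 and 40.5. Both gemcitabine libraries were higher, by a narrow margin. The log2 fold change of 0.13 ± 0.09 did not pass (edgeR adjusted p = 0.262). Scaling by library totals gave 0.24 with an edgeR adjusted p of 0.0399. In FPKM, KEAP1 stood at 22.6 and 23.9 with vehicle and at 41.7 and 27.4 with gemcitabine, so that 1 gemcitabine library lay far above the other, and limma on log2(FPKM + 1) gave 0.52 (adjusted p = 0.141).

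OSGIN1 (ENSG00000140961.8, chr16:83964916-83999937, plus strand), an oxidative stress-induced growth inhibitor that is also a target of p53, rose the most. Its counts were 96 and 119 fragments with vehicle and 207 and 180 with gemcitabine. In CPM these were 6.6 and 7.81 against 14.9 and 13.2. Both gemcitabine libraries lay well above both vehicle libraries. The fold was 1.95, a log2 fold change of 0.96 ± 0.15 (edgeR adjusted p = 0.000155). It was also the lowest of the members per length, at 3.34 and 3.94 FPKM with vehicle and 8.08 and 11.1 FPKM with gemcitabine. Leaving out each library in turn gave log2 fold changes from 0.86 to 1.10, all called.

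NQO1 (ENSG00000181019.8, chr16:69740899-69760571, minus strand), the quinone reductase most used as a readout of NRF2, had 3976 and 4124 fragments with vehicle and 4859 and 4337 with gemcitabine. These were 274 and 271 CPM against 350 and 318 CPM. The vehicle libraries were almost equal, and both gemcitabine libraries exceeded them. NQO1 rose by a fold of 1.23, a log2 fold change of 0.30 ± 0.07 (edgeR adjusted p = 0.00347). Its FPKM values were 302 and 286 against 411 and 376. With 1 vehicle library left the direction held but the adjusted p of edgeR was 0.108 without vehicle library 1 and 0.122 without vehicle library 2.

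HMOX1 (ENSG00000100292.12, chr22:35776354-35790207, plus strand), haem oxygenase, which breaks down haem and is induced by many stresses, had 372 and 400 fragments with vehicle and 386 and 377 with gemcitabine. In CPM these were 25.6 and 26.3 against 27.8 and 27.7. The gemcitabine libraries were higher by somewhat more than the gap between the vehicle libraries. Its log2 fold change of 0.10 ± 0.09 did not pass (edgeR adjusted p = 0.43).

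**Figure D2:**
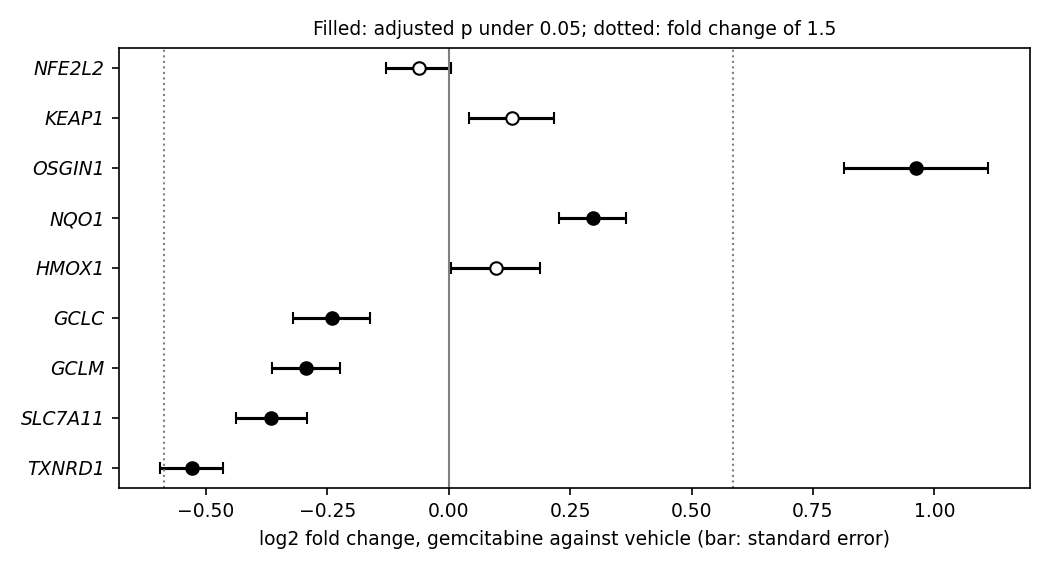
Log2 fold change with gemcitabine against vehicle from edgeR for the 9 members (points) with the standard error (bars, n = 2 per condition). Filled points passed an adjusted p of 0.05, and the dotted lines stand at a fold change of 1.5, which only OSGIN1 (0.96) exceeds.

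Both subunits of glutamate-cysteine ligase, which makes the first step of glutathione synthesis, and the cystine exchanger had fewer counts with gemcitabine. GCLC (ENSG00000001084.6, chr6:53362139-53481768, minus strand), the catalytic subunit of glutamate-cysteine ligase, had 688 and 726 fragments with vehicle and 542 and 563 with gemcitabine, or 47.3 and 47.7 against 39 and 41.3 CPM. Both gemcitabine libraries were lower. GCLC fell by 0.24 ± 0.08 on the log2 scale (edgeR adjusted p = 0.0267), the highest adjusted p of the 6 members that passed. The adjusted p was 0.145 in DESeq2 and 0.199 with library totals, and 0.175, 0.194 and 0.0645 in edgeR without vehicle library 1, vehicle library 2 and gemcitabine library 1.

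GCLM (ENSG00000023909.5, chr1:94350755-94375012, minus strand), the modifier subunit of the same ligase, had 1449 and 1658 fragments with vehicle and 1179 and 1162 with gemcitabine. On the CPM scale the values were 99.7 and 109 against 84.9 and 85.3, with the gemcitabine libraries nearly equal and below both vehicle libraries. GCLM fell by 0.29 ± 0.07 on the log2 scale (edgeR adjusted p = 0.00418). The adjusted p of edgeR was 0.0506 without vehicle library 1 and 0.145 without vehicle library 2.

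SLC7A11 (ENSG00000151012.9, chr4:139085251-139163503, minus strand), the cystine-glutamate exchanger, had 5115 and 6001 fragments with vehicle and 3897 and 4067 with gemcitabine. The CPM values were 352 and 394 against 281 and 299. Both gemcitabine values lay below both vehicle values. SLC7A11 fell by 0.37 ± 0.07 on the log2 scale (edgeR adjusted p = 0.0012), with an edgeR adjusted p of 0.109 without vehicle library 2.

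In FPKM these 3 genes did not separate. GCLC stood at 25.3 and 23.0 FPKM with vehicle and 25.4 and 20.2 with gemcitabine. GCLM stood at 37.9 and 41.2 against 36.7 and 39.5 FPKM, and SLC7A11 at 33.3 and 38.3 against 35.3 and 35.0 FPKM. The groups overlapped for all 3, and limma on log2(FPKM + 1) gave log2 fold changes of -0.09, -0.05 and -0.02 with adjusted p of 0.71, 0.748 and 0.906. On that scale the median of all genes was 0.11, so the 3 genes lay below it there too.

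TXNRD1 (ENSG00000198431.10, chr12:104609557-104744085, plus strand), thioredoxin reductase, which keeps thioredoxin reduced, fell the most. It had 11080 and 11694 fragments with vehicle and 7362 and 7222 with gemcitabine, or 762 and 768 against 530 and 530 CPM. The libraries of each condition were almost equal and the conditions were far apart. TXNRD1 was 1.44-fold lower with gemcitabine, a log2 fold change of -0.53 ± 0.06 (edgeR adjusted p = 1.88e-05), short of the fold of 1.5 for a call. Leaving out each library in turn gave -0.53 to -0.52, and limma on log2(FPKM + 1) gave -0.44 (adjusted p = 0.0504). Its FPKM values were 8750 and 8870 against 6860 and 6110, but Cuffdiff marked the estimate as failed in 3 of the 4 libraries, and its counts include fractions of fragments.

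**Figure D3:**
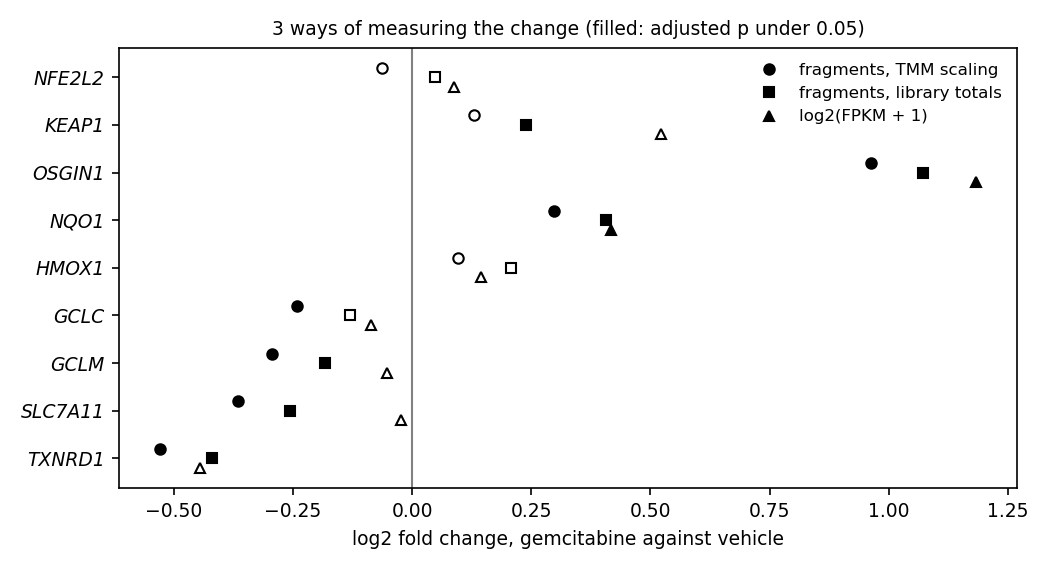
Log2 fold change of the 9 members measured from fragments with TMM scaling (circles), from fragments scaled by library totals (squares) and from log2(FPKM + 1) with limma (triangles), filled where the adjusted p was under 0.05. OSGIN1, NQO1 and TXNRD1 keep their direction, at 1.18, 0.42 and -0.44 on the FPKM scale. GCLC, GCLM and SLC7A11 move toward 0 on the FPKM scale, where the median of all genes is 0.11. KEAP1 moves from 0.13 to 0.52 on the FPKM scale, and NFE2L2 changes sign.

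TMM-scaled CPM did not overlap between the conditions for any of the 9 members, against 69.7% of all genes tested, so with 2 libraries per condition separation alone was the common case. In FPKM the conditions overlapped for NFE2L2, GCLC, GCLM and SLC7A11. The share of all genes that overlapped in FPKM was not counted, so this has no background to stand beside.

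Levels of different members can be compared only per length. By mean FPKM over the 4 libraries NQO1 (344) led the members with a valid estimate, then NFE2L2 (99.9), GCLM (38.8), SLC7A11 (35.5), KEAP1 (28.9), GCLC (23.5), HMOX1 (15.9) and OSGIN1 (6.62). Neighbours from GCLM to GCLC overlapped in their ranges over the libraries, so their order is not settled. NQO1, NFE2L2, HMOX1 and OSGIN1 each stood clear of the next gene. With vehicle NFE2L2 stood at 105 and 88.9 FPKM.

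The other genes of the pathway came from a list of 86 genes in 9 role groups, of which 83 were tested. TXNIP and SOD2 were not analysed here, and AKR1B10 had too few fragments. In edgeR's quasi-likelihood test 23 passed upward, 13 passed downward and 47 did not pass, and 9 were called higher and 1 lower. That is 43.4% past the adjusted p and 12.0% called, beside 38.5% and 10.1% of all genes tested. The median log2 fold change was 0.07. In the role groups below, counts of higher and lower are of genes past the adjusted p. Of all genes tested, 18.5% passed upward, 20.0% passed downward and 5.69% were called higher. With library totals the split past the adjusted p was 34 higher and 9 lower, a scaling that moved the median of all genes to 0.12. Fewer passed and fewer were called higher without vehicle library 1 or 2. The share of all genes passing was not counted in these settings, so these shifts cannot be read as particular to the pathway genes.

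Regulators of the NRF2 protein mostly did not pass, with 1 of 11 higher and 2 lower. SESN2, a sestrin known as a p53 target that promotes the degradation of KEAP1, had 136 and 171 fragments with vehicle and 273 and 248 with gemcitabine. Both gemcitabine libraries were far above, and SESN2 rose by 0.88 ± 0.13 on the log2 scale (edgeR adjusted p = 0.000107). SQSTM1, the autophagy receptor p62 that traps KEAP1 and the most abundant of the group by FPKM, had 5412 and 5495 against 4673 and 4148 fragments and fell by 0.19 ± 0.07 (edgeR adjusted p = 0.0406). It no longer passed with library totals (edgeR adjusted p = 0.362) or without a filter on low counts (0.0845), and the value turned to 0.03 on the log2(FPKM + 1) scale. The threshold was also missed without vehicle library 1 (0.344), vehicle library 2 (0.239) or gemcitabine library 2 (0.0728).

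Among the partners and relatives of NRF2, 1 of 6 passed upward and 2 downward. MAFF, a small MAF protein induced by stress, had 183 and 134 fragments with vehicle and 226 and 262 with gemcitabine and rose by 0.73 ± 0.16 (edgeR adjusted p = 0.00204). Its call was lost without vehicle library 2, with a log2 fold change of 0.50 and an adjusted p of 0.11. MAFK, the small MAF gene of highest FPKM, had 4890 and 5162 against 3283 and 3257 fragments. MAFK fell by 0.51 ± 0.06 on the log2 scale (edgeR adjusted p = 2.73e-05), just short of a fold of 1.5, with an adjusted p of 0.0588 in limma on log2(FPKM + 1). MAFG at 0.16 ± 0.08 did not pass (edgeR adjusted p = 0.129). MAFG passed with library totals (0.27, edgeR adjusted p = 0.0173) and without gemcitabine library 2 (0.20, edgeR adjusted p = 0.0311). NFE2L3, a relative of NRF2, was low, at 134 and 145 against 70 and 81 fragments. It fell by 0.77 ± 0.17 (edgeR adjusted p = 0.00257), but the FPKM difference was under 1, and without vehicle library 1 or 2 the adjusted p was 0.0691 or 0.087, and in limma on log2(FPKM + 1) it was 0.112. NFE2L1, the most abundant of the group by FPKM, stood at -0.01 ± 0.07 (edgeR adjusted p = 0.951). MAFK, MAFG and NFE2L3 were named after their values were seen.

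Glutathione genes outside the members were mixed, with 7 of 16 higher and 4 lower. GSS, glutathione synthetase, which makes the second step after the ligase, had 1065 and 1110 fragments with vehicle and 1280 and 1197 with gemcitabine. GSS rose by 0.30 ± 0.07 (edgeR adjusted p = 0.00301), while GSR, glutathione reductase, fell by 0.31 ± 0.07 (edgeR adjusted p = 0.00171). Both were named after their values were seen and were not followed across the alternative settings. SLC3A2, the heavy chain that pairs with SLC7A11 and with other amino acid transporters, was the only pathway gene called lower. It had 18929 and 18661 fragments with vehicle and 9809 and 10284 with gemcitabine. After scaling SLC3A2 was 1.73-fold lower, a log2 fold change of -0.79 ± 0.07 (edgeR adjusted p = 1.06e-06). CHAC1, which degrades glutathione, had 27 and 45 against 65 and 62 fragments and rose by 0.93 ± 0.27 (edgeR adjusted p = 0.0122). Its adjusted p was 0.075 in DESeq2 and 0.176 in edgeR without vehicle library 1. GGT1, which cleaves extracellular glutathione, had 28 and 19 against 58 and 52 fragments and a log2 fold change of 1.33 ± 0.29 (edgeR adjusted p = 0.0023), with an adjusted p of 0.0873 without vehicle library 2. The call was also lost in limma on log2(FPKM + 1) and log2(FPKM + 0.1), with adjusted p of 0.225 and 0.228, and its FPKM overlapped between the conditions (2.17 and 0.716 against 2.06 and 3.84). GGT1 has close copies in the genome and its counts hold fractions, so its value is uncertain. GPX4, which reduces lipid peroxides, did not pass at -0.05 ± 0.07 (edgeR adjusted p = 0.598). GPX4 had the highest FPKM of the group, a mean of 36300 over the 4 libraries, but a mean of only 183 CPM with vehicle. Its rank by FPKM is thus uncertain.

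The thioredoxin and peroxiredoxin genes had 2 of 11 higher, 1 lower and none called. TXNRD2, the mitochondrial thioredoxin reductase, had 1015 and 1129 fragments with vehicle and 1214 and 926 with gemcitabine. The gemcitabine libraries lay on both sides of the vehicle libraries, and the log2 fold change of 0.11 ± 0.10 did not pass (edgeR adjusted p = 0.396). Without gemcitabine library 2 it was 0.28 and passed (edgeR adjusted p = 0.000563). Both superoxide and peroxide genes tested stayed short of the threshold, with SOD1, the cytosolic superoxide dismutase, at 0.05 ± 0.07 (edgeR adjusted p = 0.568). Of the NADPH genes, 1 of 6 was higher and 1 lower. TKT, transketolase of the pentose phosphate pathway, had 22234 and 22099 against 15087 and 15459 fragments and fell by 0.42 ± 0.07 (edgeR adjusted p = 0.000181), with an adjusted p of 0.0574 without vehicle library 1 and of 0.0945 in limma on log2(FPKM + 1).

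In haem and iron handling 2 of 9 were higher and 1 lower. BLVRB, a biliverdin reductase, had 440 and 443 fragments with vehicle and 704 and 538 with gemcitabine and rose by 0.61 ± 0.11 (edgeR adjusted p = 0.00053). Its call was lost without vehicle library 1 (edgeR adjusted p = 0.066), without vehicle library 2 (0.0852) and without gemcitabine library 1 (log2 fold change of 0.41). SLC40A1, the iron exporter ferroportin, had 88 and 73 against 130 and 119 fragments and rose by 0.74 ± 0.18 (edgeR adjusted p = 0.0045), with an adjusted p of 0.125 without vehicle library 2. The call was also lost in limma on log2(FPKM + 1) and log2(FPKM + 0.1), with adjusted p of 0.151 and 0.142. FTH1, the ferritin heavy chain, did not pass at -0.11 ± 0.06 (edgeR adjusted p = 0.183), and it has many processed pseudogenes that can share its reads.

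Of the detoxification genes, 8 of 18 were higher, 2 lower and 3 called higher. ALDH3A1, an aldehyde dehydrogenase that protects against lipid aldehydes, had 410 and 452 fragments with vehicle and 1110 and 988 with gemcitabine. Both gemcitabine libraries exceeded both vehicle libraries by a wide margin, a fold of 2.63 and a log2 fold change of 1.40 ± 0.08 (edgeR adjusted p = 4.81e-08). AKR1C1, a ketosteroid reductase and frequent NRF2 target, had 93 and 87 against 151 and 164 fragments and rose by 0.92 ± 0.16 (edgeR adjusted p = 0.000377), though reads can be shared with its near-identical family members. CBR3, a carbonyl reductase, had 40 and 56 against 73 and 73 fragments and rose by 0.72 ± 0.23 (edgeR adjusted p = 0.0224). CBR3 had an adjusted p of 0.135 in DESeq2, and of 0.216 and 0.0774 in edgeR without vehicle library 1 and 2. AKR1B1, aldose reductase and the most abundant of the group by FPKM, rose by 0.20 ± 0.07 (edgeR adjusted p = 0.0232), with 0.136 and 0.205 without vehicle library 1 and 2. Of the 4 remaining genes known to answer NRF2, 1 passed upward, and PIR, the most abundant by FPKM, stood at -0.03 ± 0.07 (edgeR adjusted p = 0.78).

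**Figure D4:**
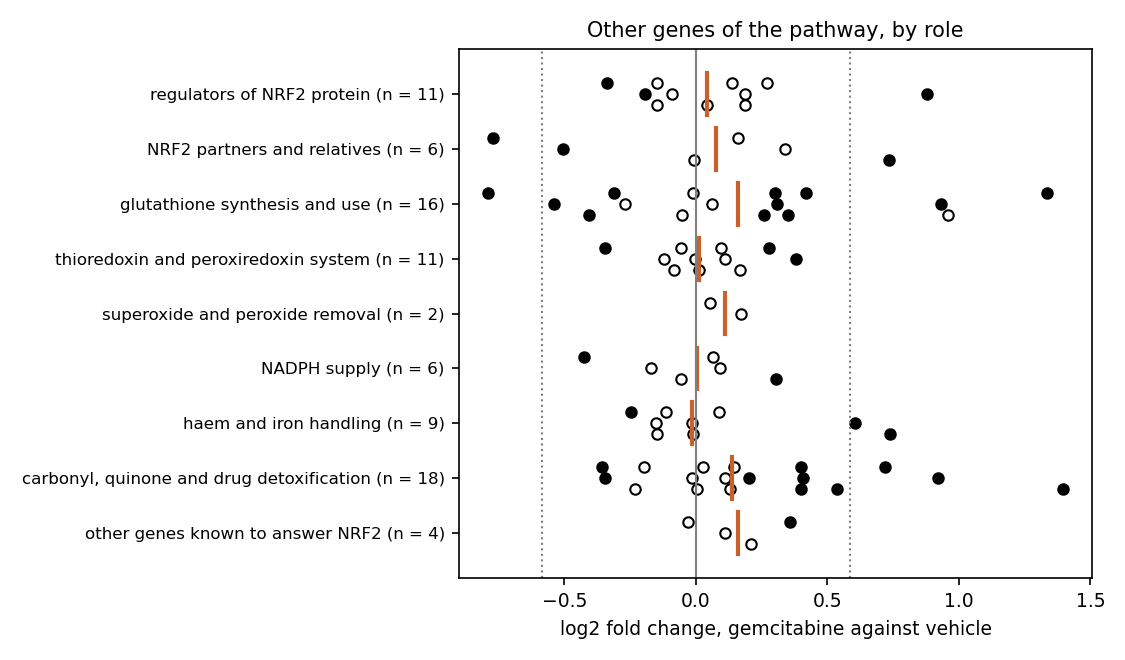
Log2 fold change with gemcitabine against vehicle for the 83 pathway genes tested, by role group, with filled points past an edgeR adjusted p of 0.05, an orange line at each group's median and dotted lines at a fold change of 1.5. The 9 genes called higher lie at the right, led by ALDH3A1 (1.40), and the 1 called lower is SLC3A2 (-0.79).

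DNaseI peaks within 5 kb of an annotated start were called for 4 of the 10 members with vehicle (NQO1, GCLM, TXNRD1 and SLC7A11) and for 3 with gemcitabine (NQO1, TXNRD1 and OSGIN1). Among 18982 genes the shares were 26.5% with vehicle and 30.3% with gemcitabine. For NFE2L2, KEAP1, HMOX1, GCLC and SRXN1 no peak within 5 kb was called in either list. Each list came from 1 library (9606 vehicle and 10695 gemcitabine peaks), so no difference between them could be tested, and the score of a peak, which grows as its p-value falls, ranks peaks only within its own list.

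NQO1 had a peak over its start in both conditions. With vehicle it spanned chr16:69760038-69761286 with a score of 107.91, rank 1664 in its list. With gemcitabine it spanned chr16:69759971-69761130 with a score of 243.12, rank 80. Both contained the capitals of the NQO1 stretch printed above, and the peaks shared 1093 bases.

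OSGIN1 had a peak only in the gemcitabine list, at chr16:83986031-83987103 with a score of 75.21 and rank 5142. It covered the main start, and the RNA of OSGIN1 was higher with gemcitabine. GCLM had a peak only in the vehicle list, at chr1:94374740-94375512 with a score of 65.75 and rank 5646. SLC7A11 likewise had one only with vehicle, at chr4:139163200-139164137 with a score of 51.34 and rank 9114, near the end of its list, and it held no match to the element. The RNA of both was lower with gemcitabine. Peaks in only 1 list did not always go with RNA in this way. Among pathway genes with a peak only with gemcitabine, RNA was higher for SESN2 but lower for CUL3. Among those with peaks only with vehicle, RNA was lower for MGST1 but higher for GLRX. A link between peaks and RNA was not tested. Over the whole lists, 57.7% of vehicle and 51.8% of gemcitabine peaks overlapped a peak of the other list.

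TXNRD1 had 2 peaks, both in each list. One began 3250 bases downstream of the main start with vehicle (chr12:104612807-104614317, score 202.86, rank 190) and was called with gemcitabine at chr12:104612692-104614326 with a score of 129.25 and rank 1130. The other covered the alternative start, at chr12:104679554-104681377 with vehicle (score 133.43, rank 827) and at chr12:104679301-104681263 with gemcitabine (score 124.8, rank 1277).

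**Figure D5:**
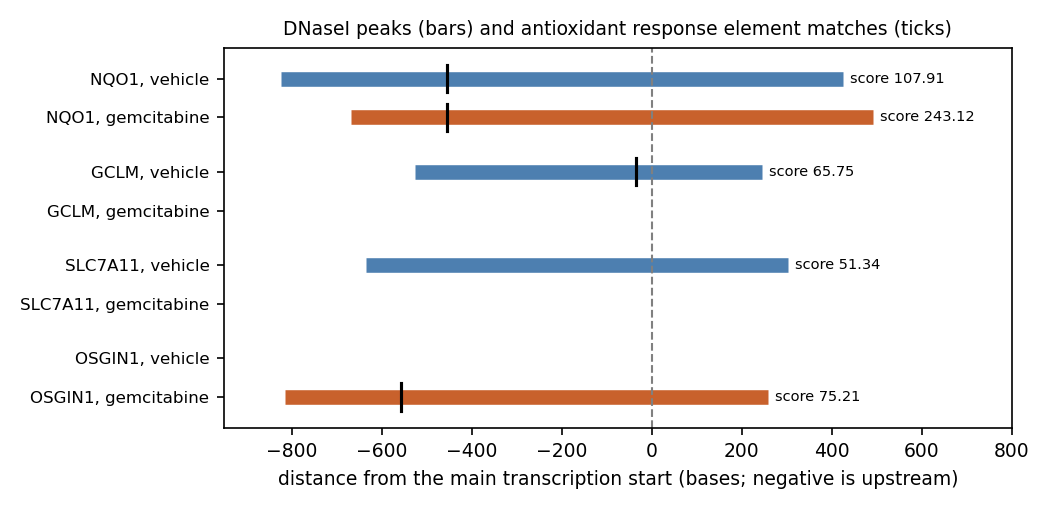
DNaseI peaks (bars) at the main start of NQO1, GCLM, SLC7A11 and OSGIN1 in the vehicle (blue) and gemcitabine (orange) lists, by distance from the start in bases, with the score beside each bar and a black tick at a match to the antioxidant response element. NQO1 has a bar in both lists, GCLM and SLC7A11 only with vehicle, and OSGIN1 only with gemcitabine.

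RefSeq promoter windows (250 bases before to 50 after a start, GRCh38.p14) were held for 8 members, HMOX1 and SLC7A11 being the other two. Matches to the element lay in the windows of KEAP1, GCLM and TXNRD1, while 16.1% of all genes with a window and 13.3% of all windows had one. KEAP1 is shown because the inhibitor of NRF2 itself carried 2 matches, 54 and 31 bases upstream of 1 of its starts (minus strand, chr19:10502807-10502835 and chr19:10502784-10502812).
KEAP1, first match: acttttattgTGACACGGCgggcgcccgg
KEAP1, second match: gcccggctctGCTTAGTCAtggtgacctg

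The GCLM window held the same match as the vehicle peak. TXNRD1 had 2 matches in the window of its first start and 1 in that of the alternative start, the last being the one in the peaks. No match in the windows of NFE2L2, NQO1, GCLC, SRXN1 and OSGIN1 says only that these letters are not there, and for NQO1 and OSGIN1 they lay farther upstream, in the peaks.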

How the data were processed

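RNA-seq and DNaseI-seq of PANC1 cells were grouped by treatment from the sample labels. For RNA-seq the authors mapped reads to hg19 (TopHat2 2.0.8) and assigned them to Gencode 15 protein-coding genes (Cuffdiff 2.0.2, at least 10 reads). The deposited table holds estimated counts per gene and library (86.8% of values whole). Its FPKM values were also made by the authors with Cuffdiff, which marked 275 genes as failed in at least 1 library. Peaks were called by the authors with MACS per condition at a p-value of 1e-05, and the deposited score was used for ranks and for the stricter peak threshold.

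Counts were rounded. A gene needed at least 10 fragments in all. Tests were quasi-likelihood F tests in edgeR 4.0.16 (R 4.3.3) with TMM scaling, Benjamini-Hochberg adjustment and no covariate, checked on simulated counts. DESeq2 1.42.0 and limma 3.58.1 on log2(FPKM + 1) or log2(FPKM + 0.1) were alternatives, with other scalings and filters. Each library was also left out, where a lone library is assumed to vary like the other condition. The gemcitabine libraries differed from each other more than the vehicle libraries did (mean chi-square of counts per gene 5.16 against 2.17). Without a vehicle library the spread came from the gemcitabine pair alone, so a threshold lost there need not be particular to the gene. The p-values rest on the spread between 2 replicates per condition, drawn toward a trend shared over all genes tested. They do not measure the spread of 1 gene alone. Limits in fragments cover counting error only. Library numbers 1 and 2 only tell the libraries of a condition apart. Symbols were matched by Ensembl ID for 19619 of 20461 genes, and gene spans and starts came from Gencode annotation on hg19. Promoter sequences are from RefSeq.

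The members and lists were chosen with earlier results of these data known. Named genes are all members, every pathway gene called, and in each role group the gene of highest mean FPKM. MAFK, MAFG, NFE2L3, GSS, GSR, CUL3, MGST1 and GLRX were added after their values were seen. The FPKM ranks behind GPX4 and TXNRD2 are uncertain, TXNRD2 having a mean FPKM of 2200 at a mean of 72 CPM with vehicle.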

Additional observations from a re-analysis of the deposited data

How the results depend on the processing

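No paired analysis was possible because the expression table numbers its libraries by an index with no link to the numbering in the labels, and no replicate block was fitted. Of 372 recomputed values of single genes, 278 kept direction and side of the threshold, 68 lost the threshold, 4 gained it and 22 changed direction, and in each case the cause was not tested beyond the setting itself. OSGIN1 was called under every alternative except limma without a filter on FPKM (adjusted p = 0.0923), where no member and no pathway gene passed or was called (0 higher, 0 lower). With adjusted p alone as the call, 2 members were higher and 4 lower, and 23 pathway genes were higher and 13 lower. Limma on log2(FPKM + 1) left 0 members and 1 pathway gene past the threshold downward, and limma on log2(FPKM + 0.1) left 1 member and 2 pathway genes, with 2 pathway genes called lower. Leaving out 1 library gave 1 to 2 members passing upward and 1 to 4 downward, 5 to 32 pathway genes passing upward and 3 to 16 downward, and 4 to 10 called higher and 1 to 2 lower. Where a direction changed, the new value was short of the threshold. NFE2L2 became 0.048 with library totals, 0.089 with log2(FPKM + 1), filtered or not, and 0.09 with log2(FPKM + 0.1). SQSTM1 became 0.027 on the 3 FPKM scales. NFE2L1 became 0.103 with library totals, 0.004 with filterByExpr and ranged from -0.082 to 0.066 with a library left out. GPX4 became 0.057 with library totals and 0.261 on the 3 FPKM scales, with a range of -0.135 to 0.049. TXNRD2 ranged from -0.083 to 0.281, and PIR became 0.081 with library totals, 0.064 with log2(FPKM + 1), 0.065 with log2(FPKM + 0.1), and ranged from -0.121 to 0.056. With a peak score of at least 100, members with a peak went from 4 to 2 (vehicle) and from 3 to 2 (gemcitabine), and pathway genes from 38 to 6 and from 43 to 13 of 85, beside 7.6% and 9.37% of all genes in place of 26.5% and 30.3%. Within 1 kb the members with a peak stayed at 4 and 3, with 1 of the 2 TXNRD1 peaks lost from each list. The pathway genes were 32 and 38 of 85, beside 22.3% and 25.7% of all genes. An overlap over 0.5 of the shorter peak changed no member's shared peaks.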
